A study of Mus musculus with 6 samples.

Results

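The genes described here are 47 axon guidance and neural adhesion genes that were higher in mouse neural precursor cells (NPCs) than in the embryonic stem cells (ESCs) from which those NPCs were made. They are 47 of the 17144 genes on the arrays. Each had to carry a symbol starting with Sema, Plxn, Nrp, Robo, Slit, Unc5, Ntn, Pcdh, Cntn, Nrxn, Nlgn, Lrrtm, Lrrn, Flrt, Dpysl, Kirrel or Astn among 1999 named rows of the study's own comparison of the cell types, and was found in the deposited table by 6 array values equal within 0.0001. Those rows are sorted by the rise in NPCs, and the last of them stands at a log2 difference of 0.83. A rise of a member is therefore how it was chosen, and its size is given below as a description, with no test. Members of the same families outside the named rows were not analysed here, and the prefixes Unc5, Nlgn and Lrrtm brought no gene. The prefix Slit brought only Slitrk5, whose product is a transmembrane leucine-rich repeat protein and not a secreted SLIT ligand.

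Both cell types were wild type. The ESCs were the blastocyst-derived line V6.5, of a 129SvJae/C57B6 F1 background, kept with serum and LIF. The NPCs came from the same ESCs by differentiation in culture and were grown on laminin in N3 medium with bFGF and EGF. There were 3 biological replicates of each cell type, with 1 Affymetrix array for each. All samples thus go back to 1 cell line, and the labels do not say whether the NPC replicates were separate differentiations, so the spread between arrays may be partly technical. Expression is given on the log2 scale of robust multi-array average (RMA), on which a difference of 1 is a 2-fold change. An array value has no read depth behind it, and precision is set by how few arrays there are.

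Few defining markers of the cells have a name here. Fabp7 and Nes are named through the rising rows, so they could only appear as higher in NPCs and are no test of identity. Pou5f1 was named through the study's separate sheet of POU genes. Pou5f1, the pluripotency factor OCT4, stood at 12.44 ± 0.02 (SD, n = 3) on the log2 scale in ESCs and at 3.70 ± 0.11 in NPCs. Fabp7, a lipid-binding protein of radial glia, went from 3.78 ± 0.06 to 13.05 ± 0.42, and the intermediate filament gene Nes from 5.63 ± 0.22 to 7.68 ± 0.15. NPC replicate 3 stood apart from the rest. Across genes its correlation with NPC replicates 1 and 2 was r = 0.978 to 0.979, where those arrays reached r = 0.997 with each other. The log2 difference of each of the 47 genes is therefore also given without it.

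Growing axons steer by secreted and membrane-bound cues. Semaphorins act through plexins, with neuropilins as co-receptors for the class 3 semaphorins, SLITs act through ROBO receptors, and netrins act through DCC and UNC5 receptors. Protocadherins, contactins and leucine-rich repeat proteins instead hold membranes of neighbouring cells together or sort them by their surface identity. Many of these genes are also used by dividing progenitors of the neural tube, before any axon is made.

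RefSeq promoter windows on GRCm38.p6, which run from 250 bases before a start site to 50 after it, were at hand for 26 of the 47 genes, some with several start sites, 34 windows in all. There was none for the 13 clustered protocadherins, nor for Dpysl2, Dpysl3, Kirrel3, Lrrn3, Nrxn2, Ntn1, Pcdh11x and Sema6a. The ratio of observed to expected CpG dinucleotides had a median of 0.61 in these windows and of 0.38 over all 32851 windows in the table, and it was above 0.6 in 18 of the 34, or 52.9%, against 35.8% of all. The SOX core letters ACAAT, on either strand, occurred in 5 of the 34 windows, or 14.7%, and in 31.0% of all windows. The octamer letters TGCAAAT, searched on both strands, occurred in 0 of the 34 and in 4.02% of all. The windows also differed in base content, with a median of 63.3% G and C in the 34 and 52.7% in all, and the motif shares were not adjusted for it. The short letters are matches in a window and not binding sites. Shown here are the 250 bases before the start of the 3 members with the largest rises whose window lies outside the annotated gene. Each CpG is in capitals, to show how dense CpG is before the start of these 3 genes only.
Lrrn1, chr6:107529476-107529725, plus strand: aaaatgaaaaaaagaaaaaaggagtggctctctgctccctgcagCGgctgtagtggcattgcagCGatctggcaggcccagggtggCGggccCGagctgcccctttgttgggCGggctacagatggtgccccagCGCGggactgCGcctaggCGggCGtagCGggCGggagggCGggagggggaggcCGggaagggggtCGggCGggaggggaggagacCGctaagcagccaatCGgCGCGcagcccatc
Ntn4, chr10:93640799-93641048, plus strand: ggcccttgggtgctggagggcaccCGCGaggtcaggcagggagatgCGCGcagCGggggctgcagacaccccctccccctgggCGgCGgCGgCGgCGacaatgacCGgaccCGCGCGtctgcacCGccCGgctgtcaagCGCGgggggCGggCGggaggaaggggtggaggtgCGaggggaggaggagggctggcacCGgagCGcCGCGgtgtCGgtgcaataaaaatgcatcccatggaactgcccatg
Pcdh10, chr3:45378148-45378397, plus strand: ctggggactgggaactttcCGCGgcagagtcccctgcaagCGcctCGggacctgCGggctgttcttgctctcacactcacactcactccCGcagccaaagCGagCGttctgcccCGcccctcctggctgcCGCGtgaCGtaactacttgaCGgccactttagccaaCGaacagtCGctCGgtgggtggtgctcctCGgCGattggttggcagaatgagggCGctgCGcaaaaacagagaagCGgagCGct
These stretches hold 20 CpG before Lrrn1, 26 before Ntn4 and 22 before Pcdh10. Ntn4 is the only one of the 3 with a match to ACAAT. The SOX2 motif that the study reports, CTTTGTT, is not found by a search for ACAAT, and the Lrrn1 stretch holds it. Windows with CTTTGTT were not counted, so the ACAAT share does not cover all SOX sequences. Only 5 genes had a window of this kind. Windows of another kind, with bases before the start that overlap the annotated span of the gene, included those of Astn1, with 2 CpG and a ratio of 0.11, and Sema3a, with 2 CpG and a ratio of 0.16.

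Over the 47 genes the log2 difference of NPCs from ESCs ran from 0.83 to 5.99, with a median of 2.18, beside a median of -0.036 over all genes and of 1.47 over the named rows. Every NPC array exceeded every ESC array for 46 of the 47 genes, beside 26.1% of all genes, and without NPC replicate 3 for 47. limma, with Benjamini-Hochberg adjustment over all genes and a difference of more than 1.5-fold, called 46 of the 47 as higher, beside 15.4% of all genes in that direction. The exception in both counts was Pcdhb3, which limma called once NPC replicate 3 was left out. Since the same contrast chose the genes, nothing is read from these counts. Without replicate 3 the log2 differences of the 47 genes ran from 0.80 to 5.99 with a median of 2.22, and none moved by more than 1.5 times. Arrays of bulk RNA cannot tell more cells that express a gene from more RNA in each cell.

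**Figure D1:**
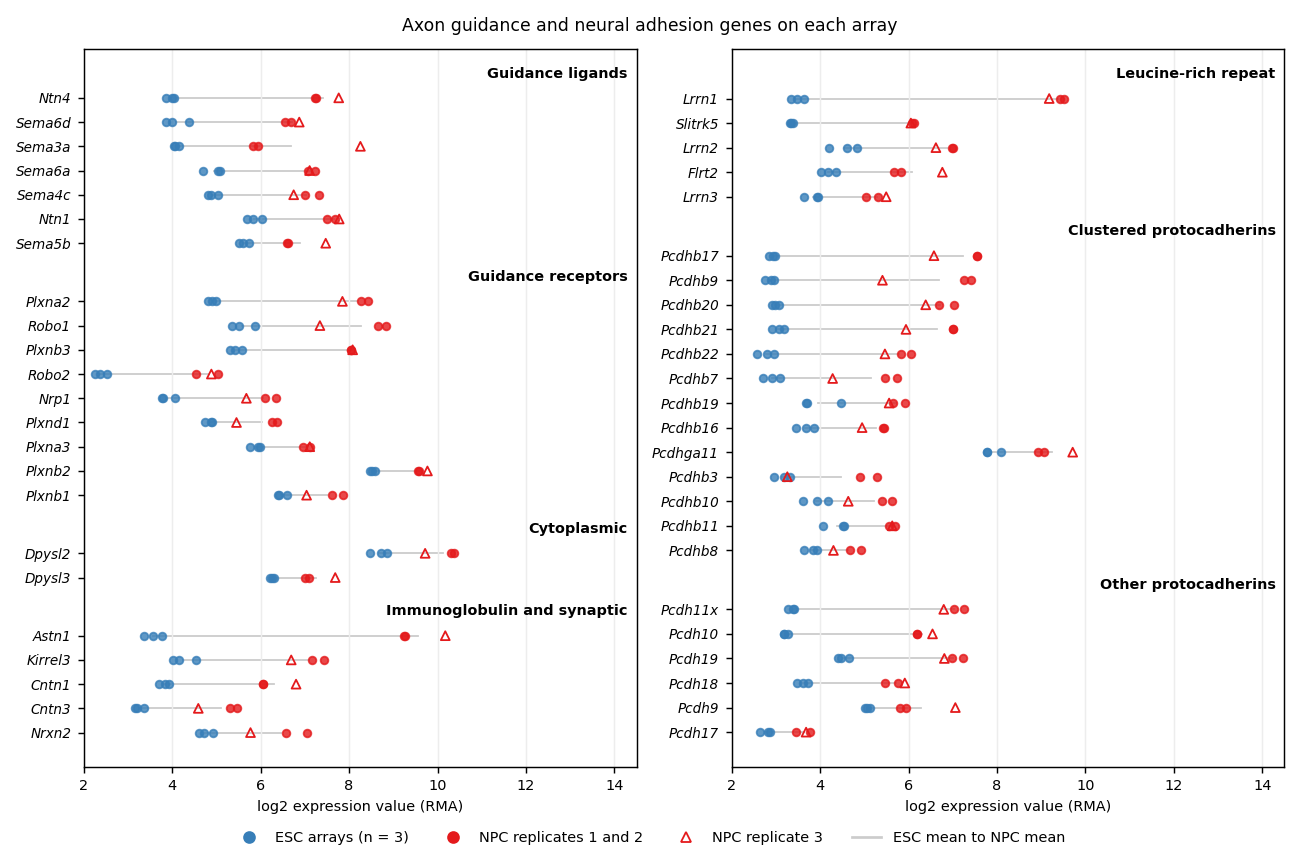
Log2 RMA expression value (x axis) of each of the 47 genes (y axis), grouped by role and sorted by rise, with ESC arrays as blue points, NPC replicates 1 and 2 as red points and NPC replicate 3 as an open triangle; the grey line joins the means of the cell types. The NPC arrays lie to the right of the ESC arrays for 46 genes, and the triangle falls among the ESC points for Pcdhb3.

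The ligands were led by Ntn4, which encodes netrin 4, a secreted protein of basement membranes. Its values were 3.99, 3.87 and 4.04 in ESCs and 7.22, 7.24 and 7.77 in NPCs, a log2 difference of 3.44 or 10.9-fold. The lowest NPC value was 3.18 above the highest ESC value. Netrin 1, the classical attractant of commissural axons, is encoded by Ntn1, which went from 5.86 ± 0.17 (SD, n = 3) to 7.66 ± 0.14, a log2 difference of 1.80. Sema6d, a transmembrane semaphorin, read 3.996, 3.85 and 4.37 in ESCs and 6.68, 6.54 and 6.87 in NPCs, and its log2 difference was 2.63. The other transmembrane semaphorins differed by 2.202 for Sema6a, 2.12 for Sema4c and 1.28 for Sema5b. For Sema5b the ESC arrays gave 5.59, 5.51 and 5.73 and the NPC arrays 6.62, 6.59 and 7.47, so that NPC replicate 3 was the highest.

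Sema3a, the only secreted semaphorin among the members and a repellent read by neuropilin 1 and class A plexins, had the most uneven NPC values. It read 4.06, 4.05 and 4.15 in ESCs, then 5.82, 5.95 and 8.26 in NPC replicates 1 to 3. The NPC arrays did not overlap the ESC arrays, but replicate 3 was 5.16-fold above the mean of the other NPC arrays. The log2 difference from ESCs was 2.59 with that array and 1.80 without it. Of the 7 ligands, 5 were highest among the NPC arrays in replicate 3, and 1, Sema4c, was lowest there. Without that array the log2 differences of the others were 3.26 for Ntn4, 1.74 for Ntn1, 2.54 for Sema6d, 2.22 for Sema6a, 2.26 for Sema4c and 1.00 for Sema5b.

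Among the receptors Plxna2 differed most. This plexin, which reads class 3 and class 6 semaphorins, stood at 4.81, 4.98 and 4.91 in ESCs and at 8.44, 8.27 and 7.85 in NPCs, a log2 difference of 3.29 or 9.76-fold. Plxnb3, a receptor of class 5 semaphorins, had nearly equal values in the NPC arrays, at 8.05, 8.04 and 8.08, against 5.41, 5.31 and 5.59 in ESCs. Its log2 difference was 2.62. The remaining plexins differed less, by 1.19 for Plxnd1, 1.16 for Plxna3, 1.12 for Plxnb2 and 1.04 for Plxnb1. Plxnb1, which binds the class 4 semaphorin SEMA4D, read 6.38, 6.42 and 6.59 in ESCs and 7.87, 7.60 and 7.04 in NPCs. Its groups were 0.45 apart at their closest. Nrp1, the co-receptor for SEMA3A, went from 3.87 ± 0.16 to 6.04 ± 0.34 (SD, n = 3), a log2 difference of 2.18.

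The SLIT receptors Robo1 and Robo2 had similar log2 differences, of 2.70 and 2.45, but different spreads. Robo1 read 5.87, 5.51 and 5.35 in ESCs, then 8.84, 8.65 and 7.34 in NPC replicates 1 to 3. In replicate 3 it was thus 2.64-fold below the mean of the other NPC arrays, though still 1.47 above the highest ESC array on the log2 scale. Without replicate 3 its log2 difference was 3.17. Robo2 read 2.36, 2.52 and 2.24 in ESCs and 5.05, 4.53 and 4.88 in NPCs, and replicate 3 lay between the others. Leaving out replicate 3 gave the remaining receptors log2 differences of 3.46 for Plxna2, 2.61 for Plxnb3, 2.41 for Robo2, 2.36 for Nrp1, 1.48 for Plxnd1, 1.13 for Plxna3, 1.05 for Plxnb2 and 1.27 for Plxnb1.

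The cytoplasmic members are the collapsin response mediator genes Dpysl2 and Dpysl3, whose proteins bind tubulin and relay semaphorin signals to the cytoskeleton. Dpysl2 read 8.85, 8.73 and 8.48 in ESCs and 10.36, 10.31 and 9.72 in NPCs, a log2 difference of 1.44. Dpysl3 read 6.20, 6.25 and 6.31 against 7.09, 7.01 and 7.69, a log2 difference of 1.01. In neither gene did the groups overlap. Replicate 3 was the lowest NPC array for Dpysl2 and the highest for Dpysl3, and without it the log2 differences were 1.65 for Dpysl2 and 0.80 for Dpysl3.

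Astn1 and Lrrn1 had the largest log2 differences of the 47 genes, and their order changed with the arrays used. Astn1 encodes astrotactin 1, a membrane protein known from the migration of young neurons along glial fibres. It read 3.77, 3.57 and 3.36 in ESCs and 9.27, 9.24 and 10.17 in NPCs, a log2 difference of 5.99 or 63.8-fold. All NPC arrays were at least 5.47 above all ESC arrays. Without replicate 3 its difference was 5.69, below the 5.99 of Lrrn1. Lrrn1 was also ahead without ESC replicate 3, at 5.97 against 5.89, and by the difference of medians, at 5.96 against 5.71. Kirrel3, an immunoglobulin protein of synapses and of sorted sensory axons, read 4.02, 4.15 and 4.54 against 7.43, 7.16 and 6.69, a log2 difference of 2.86. Cntn1, a lipid-anchored contactin, read 3.94, 3.83 and 3.69 against 6.05, 6.04 and 6.80, which differ by 2.48. Cntn3 differed by 1.87. Nrxn2, a presynaptic neurexin, was the member of this group with the smallest log2 difference, 1.71, and with the widest NPC spread. Its values were 4.72, 4.60 and 4.92 in ESCs, then 7.04, 6.57 and 5.77 in NPC replicates 1 to 3, so that without replicate 3 the difference was 2.06. The same omission gave 3.06 for Kirrel3, 2.23 for Cntn1 and 2.13 for Cntn3.

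Of the leucine-rich repeat genes, Lrrn1 had a log2 difference close to that of Astn1. It encodes a single-pass membrane protein and stood at 3.48, 3.34 and 3.64 in ESCs and at 9.51, 9.43 and 9.18 in NPCs. The log2 difference was 5.89 or 59.3-fold, and 5.99 without replicate 3. Its relatives differed less: Lrrn2 read 4.83, 4.60 and 4.20 against 6.98, 7.01 and 6.62, a log2 difference of 2.32. Lrrn3 read 3.93, 3.94 and 3.64 against 5.03, 5.32 and 5.49, a difference of 1.44. Both were lower in ESCs than in NPCs on every array. Slitrk5 was the evenest of the group, at 3.34, 3.31 and 3.39 against 6.07, 6.13 and 6.05, a log2 difference of 2.74. Flrt2, which binds UNC5 receptors and latrophilins, read 4.37, 4.18 and 4.01 in ESCs, then 5.66, 5.83 and 6.76 in NPC replicates 1 to 3. Its log2 difference was 1.90, and 1.56 without replicate 3. The other differences were then 2.45 for Lrrn2, 1.33 for Lrrn3 and 2.76 for Slitrk5.

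The protocadherins were the most numerous family, with 19 of the 47 genes. The 6 that lie outside the gene clusters encode membrane proteins that bind their own kind on neighbouring cells. Pcdh11x read 3.39, 3.40 and 3.26 in ESCs and 7.04, 7.25 and 6.80 in NPCs, a log2 difference of 3.68 or 12.8-fold. Pcdh10 read 3.18, 3.19 and 3.28 against 6.19, 6.19 and 6.54, a difference of 3.09. Pcdh19, the gene of an X-linked epilepsy of females in humans, read 4.48, 4.40 and 4.66 against 7.22, 6.98 and 6.81, which differ by 2.49. Pcdh18 differed by 2.10. Pcdh17 lies close to the lower limit of the rule, at 2.82, 2.86 and 2.65 against 3.76, 3.46 and 3.68, a log2 difference of 0.86. Pcdh9 was again raised in replicate 3, with 5.13, 5.06 and 5.02 in ESCs, then 5.81, 5.95 and 7.06 in NPC replicates 1 to 3. Its log2 difference was 1.20 with replicate 3 and 0.81 without it, and with ESC replicate 3 left out it was not called by limma. The other 5 genes had log2 differences without NPC replicate 3 of 3.79 for Pcdh11x, 2.97 for Pcdh10, 2.59 for Pcdh19, 2.00 for Pcdh18 and 0.84 for Pcdh17.

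The 12 Pcdhb genes and Pcdhga11 belong to the protocadherin gene clusters, which RefSeq places on chromosome 18, where each neuron is known to express its own random subset of isoforms as a surface label. RefSeq lists 22 Pcdhb genes there. The largest log2 difference was that of Pcdhb17, at 2.84, 2.98 and 2.94 in ESCs and 7.55, 7.55 and 6.57 in NPCs, which is 4.30 or 19.8-fold. Pcdhb9 read 2.89, 2.75 and 2.96 in ESCs, then 7.42, 7.26 and 5.41 in NPC replicates 1 to 3, a difference of 3.83. Pcdhb20 read 2.97, 2.91 and 3.08 against 7.02, 6.70 and 6.39, a difference of 3.72. The smallest of the family was Pcdhb8, just inside the limit of the rule, at 3.84, 3.63 and 3.94 against 4.68, 4.93 and 4.30, a difference of 0.83.

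In the order that RefSeq gives their symbols along the chromosome, the log2 differences of the Pcdhb genes were 1.34 for Pcdhb3, 2.25 for Pcdhb7, 0.83 for Pcdhb8, 3.83 for Pcdhb9, 1.32 for Pcdhb10, 1.26 for Pcdhb11, 1.61 for Pcdhb16, 4.30 for Pcdhb17, 1.76 for Pcdhb19, 3.72 for Pcdhb20, 3.59 for Pcdhb21 and 3.01 for Pcdhb22. Large and small differences thus sat beside each other in this order of symbols, as for Pcdhb8 and Pcdhb9. Pcdhga11, from the gamma cluster, went from 7.89 ± 0.18 to 9.23 ± 0.42 (SD, n = 3), a log2 difference of 1.35. Genes of the gamma cluster share their last exons, and the beta genes resemble each other closely in sequence. Whether a probe set reads a single gene of these was not tested. RefSeq also lists 6 of the 12 Pcdhb symbols as older names of other Pcdhb genes, so the symbols follow the study's sheet and the Ensembl identifiers settle the rows: Pcdhb17 is ENSMUSG00000046387, Pcdhb9 is ENSMUSG00000051242, Pcdhb7 is ENSMUSG00000045062, Pcdhb16 is ENSMUSG00000047910, Pcdhb11 is ENSMUSG00000051486 and Pcdhb8 is ENSMUSG00000045876. The rows were placed along the chromosome by symbol alone, so the places of these 6 were not settled.

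**Figure D2:**
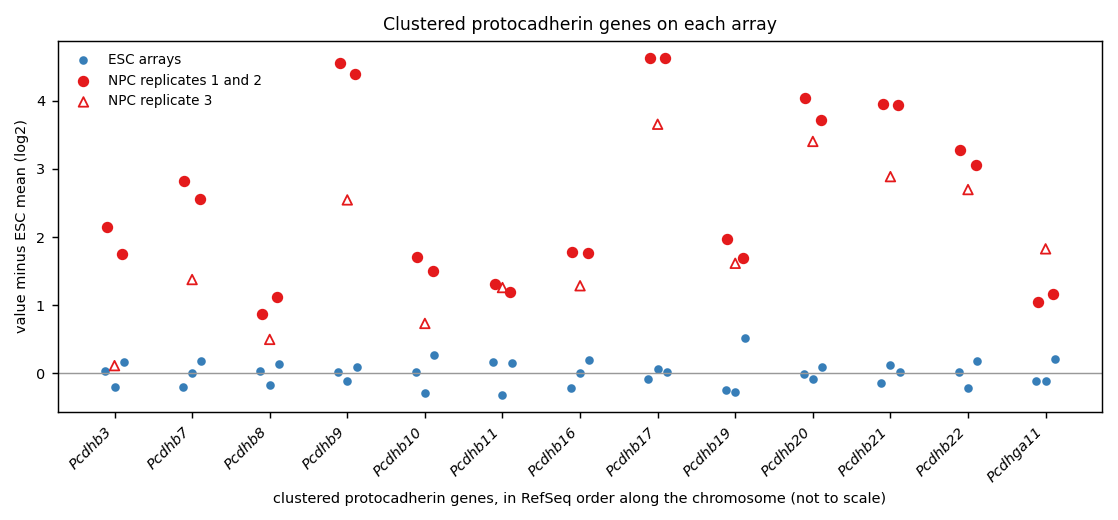
Value minus the ESC mean on the log2 scale (y axis) of the 13 clustered protocadherin genes in the RefSeq order of their symbols along the chromosome (x axis, not to scale), for ESC arrays (blue points), NPC replicates 1 and 2 (red points) and NPC replicate 3 (open triangles). The triangle is below both red points for 11 of the 12 Pcdhb genes, reaches the ESC points for Pcdhb3 and is above both red points for Pcdhga11.

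The Pcdhb genes had lower values in NPC replicate 3 than in the other NPC arrays. Replicate 3 was the lowest NPC array for 11 of the 12, beside 41.5% of all genes and 52.2% of the named rows, and the count was also 11 after quantile normalization and after centring of the arrays. This count was chosen after the values were seen. The exception was Pcdhb11, at 5.68, 5.57 and 5.63. In 4 of the 12 genes replicate 3 was more than 2-fold below the mean of replicates 1 and 2. These were Pcdhb9, 3.80-fold lower, Pcdhb3, 3.56-fold, Pcdhb7, 2.49-fold, and Pcdhb21, 2.09-fold. Pcdhb3 read 3.17, 2.95 and 3.31 in ESCs, then 5.29, 4.89 and 3.26 in NPC replicates 1 to 3, the last of which is within the range of the ESC arrays. Pcdhb7 read 2.71, 2.92 and 3.09 against 5.73, 5.47 and 4.28, and Pcdhb21 read 2.92, 3.18 and 3.07 against 7.01, 6.99 and 5.94, so that both stayed above the ESC arrays. Without replicate 3 the log2 differences from ESCs were 4.47 for Pcdhb9, 1.95 for Pcdhb3, 2.69 for Pcdhb7 and 3.95 for Pcdhb21. Those of the other clustered genes were 1.00 for Pcdhb8, 1.61 for Pcdhb10, 1.25 for Pcdhb11, 1.77 for Pcdhb16, 4.63 for Pcdhb17, 1.83 for Pcdhb19, 3.87 for Pcdhb20, 3.17 for Pcdhb22 and 1.11 for Pcdhga11.

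Among all 47 genes, replicate 3 was the lowest NPC array for 26 and the highest for 17, where it was the highest for 37.9% of all genes and for 37.9% of the named rows. It was more than 2-fold below the mean of the other NPC arrays for 6, beside 1.8% of all genes and 8.55% of the named rows. Besides the 4 Pcdhb genes these were Robo1 and Nrxn2. It was more than 2-fold above that mean for 3, Sema3a, Pcdh9 and Flrt2, beside 2.2% of all genes and 6.6% of the named rows. NPC replicates 1 and 2, in contrast, were more than 1 apart on the log2 scale for 0 of the 47 genes, beside 0.0408% of all genes and 0.15% of the named rows. They lay within 0.5 of each other for 46, the exception being Robo2 at 0.52. That held for 16856 of all 17144 genes and 1948 of the 1999 named rows, so nothing is read from the 46. The median shift of replicate 3 was -0.69 for the 12 Pcdhb genes and 0.073 for the other 35 members. It was -0.51 for the 9 receptors and 0.26 for the 7 ligands. A comparison with 1 array has no replicate check, and no test was made.

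**Figure D3:**
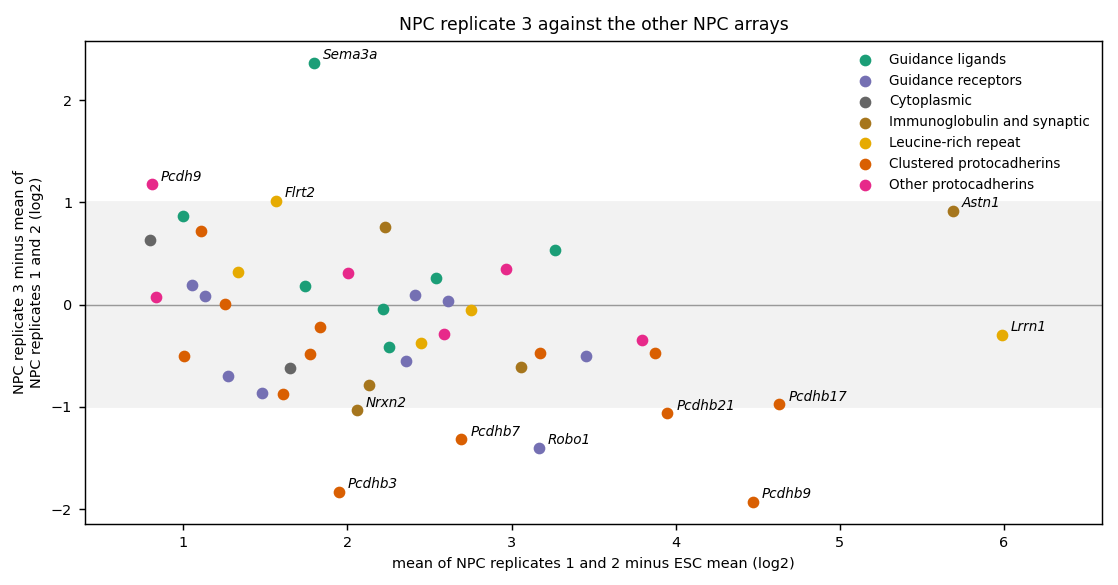
For each of the 47 genes, NPC replicate 3 minus the mean of NPC replicates 1 and 2 (y axis, log2) against the rise of replicates 1 and 2 over the ESC mean (x axis, log2), coloured by role; the grey band marks a difference of up to 2-fold. Sema3a, Pcdh9 and Flrt2 lie above the band and Robo1, Nrxn2 and 4 Pcdhb genes below it.

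Markers of other cell types also differed in replicate 3. Of 10 neuron markers 2 had a name here, Dcx and Syt1, and the sum of their values on the linear scale was 22.9 to 25.7 in ESCs, and 151, 164 and 43.4 in NPC replicates 1 to 3. Dcx, a microtubule protein of migrating neurons, read 4.86, 5.06 and 3.76 in NPCs, and Syt1, the calcium sensor of synaptic vesicles, read 6.93, 7.02 and 4.90. Of 6 astrocyte markers 3 had a name, S100b, Slc1a3 and Aldoc. Their sum was 329 to 339 in ESCs, and 1875, 1882 and 2989 in NPC replicates 1 to 3. The oligodendrocyte lineage markers Olig1 and Olig2, 2 of 7, summed to 748 to 783 in ESCs and to 11415 to 11627 in the NPC arrays, a sum made mostly of Olig1. On the log2 scale Olig1 read 13.21, 13.22 and 12.99 in NPC replicates 1 to 3 and Olig2 read 11.07, 10.96 and 11.67, so that replicate 3 was the lowest for Olig1 and the highest for Olig2. The fibroblast, endothelial and microglia lists had no named gene. All markers named in this paragraph come from the rising rows, so a rise over ESCs is how they came to be named. The part of such cells in the values of replicate 3 was not tested.

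In ESCs the members had low signals. On average over the ESC arrays 40 of the 47 genes stood below the median of all genes, and the median percentile of the members was 24.2, against 50.5 for the named rows as a whole. Ranked only among genes at or above the 25th percentile of the mean value, the members had a median of 3.60. Ranked among all genes, as for the 24.2, the Pcdhb genes had a median of 7.22, the receptors 46.1 and the ligands 39.0. In NPCs the median percentile of the members was 63.1 and that of the named rows 75.8. A percentile ranks signals of different probe sets, which need not bind alike, and detection calls were not used here, so that a low value does not set whether a transcript was present. The difference and the ESC level come from the same arrays, and no test was made.

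A wider list of 59 guidance and adhesion genes had 21 genes among the named rows, which makes them rising genes by choice too. The list also holds Slitrk and Cntnap genes, whose symbols start with prefixes of the rule. Any of these in the named rows would be a member, so they could not add to the 21. limma called 20 of them as higher and 0 as lower, beside 15.4% of all genes called higher and 1948 of the 1999 named rows called, so nothing is read from the count. Without NPC replicate 3 all 21 were called. Their log2 differences ran from 1.07 for Ncam2 to 5.997 for Bcan, with a median of 1.74. Bcan, the brain proteoglycan brevican, read 5.05, 5.28 and 4.86 in ESCs and 11.19, 10.91 and 11.09 in NPCs. Ncam1, the neural cell adhesion molecule, read 5.88, 5.81 and 6.16 against 7.94, 8.001 and 8.05. Gap43, a growth cone protein, read 8.32, 8.55 and 10.11 in NPC replicates 1 to 3, against 4.43 ± 0.25 (SD, n = 3) in ESCs. Chl1, a relative of the adhesion molecule L1, read 3.98, 3.89 and 6.22 in NPCs against 3.10 ± 0.07 in ESCs and was the gene not called. In replicate 3, Gap43 and Chl1 were more than 2-fold above the mean of the other NPC arrays and Dcx more than 2-fold below it.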

How the data were processed

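RNA of wild type ESCs and NPCs was hybridised to 6 Affymetrix mouse arrays, 3 for each cell type. The authors deposited RMA values on the log2 scale, corrected for background, quantile normalized and summarized per Ensembl gene with the BrainCDF probe annotation. For that annotation, neither version nor genome build is given in the sources used here. The table has 17208 rows, of which 64 control probe sets were left out. Arrays carry no depth.

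Rows were named by matching all 6 values to named rows of the study's comparison sheet within 0.0001. Pou5f1 was named in the same way through the study's separate sheet of POU gene expression. The comparison sheet's own fold changes and test values were not used, nor was any other row of that sheet. The members and the gene lists were chosen with earlier results of these data known. Every member was named, and values by array were given for the 3 largest and the smallest difference of each role and for members more than 1 (log2) apart in NPC replicate 3. Cell types were compared in limma 3.58.1 (R 4.3.3) by lmFit and eBayes without covariates, with Benjamini-Hochberg adjustment over 17144 genes, and genes were called at an adjusted p under 0.05 and more than 1.5-fold, the thresholds of the methods, whose moderated Welch test was rebuilt as an alternative. The scripts were tested on simulated data. Percentiles are ranks among all genes of an array. Figures and tables used Python 3.11.15, pandas 2.3.3 and matplotlib 3.10.9. Gene order and promoter sequences came from RefSeq (GRCm38.p6), and both were matched by symbol.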

Additional observations from a re-analysis of the deposited data

How the results depend on the processing

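The 47 log2 differences were recomputed under 9 alternatives each, 423 values in all. None changed sign, and the lowest was 0.69. By less than the spread between replicates moved 416, and 7 moved by more, in 6 genes, under quantile normalization or median centring. Values with a single array left out could only fall among the 416, since the spread includes that array and always exceeds its shift. Nothing is therefore read from the 416. The median difference of 2.18 became 2.33 with each array centred on its median, which shifts the median of all genes from -0.036 to 0.12, and lay between 2.11 and 2.22 when single arrays were left out. The 5851 genes called among all were 2638 higher and 3213 lower in NPCs, which median centring turned into 3302 and 2642. They became 3592 with a fold change over 2, and lay between 5637 and 6199 with an array left out. Of the members, 45 to 47 were then called. A filter at the median of the mean value kept 16 members and called 16, beside 4123 of 8572 genes called, 1920 of them higher, so that nothing is read from it, and a fold change over 2 left out Pcdh17, Pcdhb8 and Pcdhb3. Pcdhb3 was called after median centring and without NPC replicate 3, and Pcdh9 was not called without ESC replicate 3.

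With 1.5-fold in place of 2-fold, 13 members were low and 8 were high in NPC replicate 3, by construction more than the 6 and 3 given. At 1.5-fold, 5.93% of all genes and 20.2% of the named rows were low there, and 5.71% and 13.9% were high. The median ESC percentile of 24.2 became 3.60 among genes at or above the 25th percentile of the mean value, since low genes leave the ranking, and was 24.1 to 25.5 with an ESC array left out. The counts of members without overlap, with and without NPC replicate 3, were chosen after seeing the data. So were the counts of Pcdhb genes lowest in that array, under every scaling.

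Both cell types use the numbers 1 to 3 for their replicates. Deviations of same-numbered arrays from their group means correlated at 0.026, 0.011 and -0.0065 across genes. Such a correlation cannot exclude a shared factor that touches few genes. The labels tie these arrays by nothing but the number. A replicate block in the fit gave 5867 genes and 46 members called, beside 5851 and 46.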
